A study of Mus musculus with 12 samples.

Results

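Immediate early genes are a class of genes that a cell transcribes within minutes of a stimulus, without first making new protein, because their promoters are read by transcription factors already present and activated by kinases such as the MAP kinases. Growth factors, hormones, feeding, stress and tissue handling can all raise them, and their mRNAs are short-lived. In liver they are best known from regeneration after partial hepatectomy and from the acute-phase and stress responses, and several of them also follow the daily cycle of feeding. The 10 genes described here were chosen by their symbols, as the rows of the deposited expression table whose symbol is Egr1, Fos, Jun, Junb, Ier2, Ier3, Atf3, Myc, Dusp1 or Btg2, out of 23849 symbols. The list was drawn up with results on these same livers known, and no single measured value or contrast is named as the one it was selected on. The members' values and the outcomes of the fits are therefore a description of these livers and not independent evidence that the class responded.

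The livers came from 12 male C57BL/6J mice, given as 8 weeks old in the series' description, all of them fed a high-fat diet for 6 weeks in all. During the last 2 weeks the mice received either vehicle, which was drinking water, or Policaptil Gel Retard, named Libramed in the sample labels, a mixture of soluble and insoluble plant fibres that forms a gel in the gut. Both were given by oral gavage once a day at ZT11, where ZT0 is lights on and ZT12 is lights off in a 12 h light and 12 h dark cycle. Livers were taken at ZT0 or ZT12, giving 4 groups (vehicle ZT0, vehicle ZT12, Policaptil ZT0 and Policaptil ZT12) of 3 mice each. There was no group on a normal diet among these samples, and no gene was altered. Since gavage came just before ZT12, the hour of the day and the time since gavage cannot be told apart in the comparison of ZT12 with ZT0.

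Values are FPKM, fragments per kilobase of transcript scaled to the mapped fragments of the library, so that levels can be compared between genes as well as between livers. The relative depth of a library was read from genes with a mean under 0.1 FPKM, as the most common ratio between vehicle ZT0 replicate 1 and that library. It differed by a factor of 1.79 between the shallowest and the deepest, with group medians of 0.99 to 1.17, and the absolute depth is unknown. The sum of FPKM lay between 634683 and 759355. Pairs of libraries had a correlation across genes between 0.958 and 0.987. All 7 hepatocyte markers were well above 0 in every liver, with a summed level of 35170 to 49760 FPKM, although albumin was listed at 0 in all 12 libraries. In whole liver, fewer cells of a type and less RNA per cell cannot be told apart.

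The members differed widely in level. Averaged over the 12 livers, Ier2 was the highest at 31.6 FPKM, followed by Dusp1 at 26.7 and Junb at 17.6. Jun at 6.96, Egr1 at 4.90, Myc at 4.82 and Btg2 at 3.16 formed a middle range. Atf3 at 0.774, Ier3 at 0.706 and Fos at 0.699 were the lowest. The mean levels of Egr1 and Myc were nearly equal and those of Atf3, Ier3 and Fos were too, and these neighbours did not differ beyond the spread of their own livers. A minimum mean of 1 FPKM was required for a test, which 7 members passed (Egr1, Jun, Junb, Ier2, Myc, Dusp1 and Btg2), as did 9806 of all symbols. Fos, Ier3 and Atf3 stayed below it and are given by their values and an exact permutation test alone. The median of the 12 livers was well under the mean for Egr1 (2.44 FPKM) and Myc (1.48 FPKM), since a few livers carried most of the signal.

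**Figure D1:**
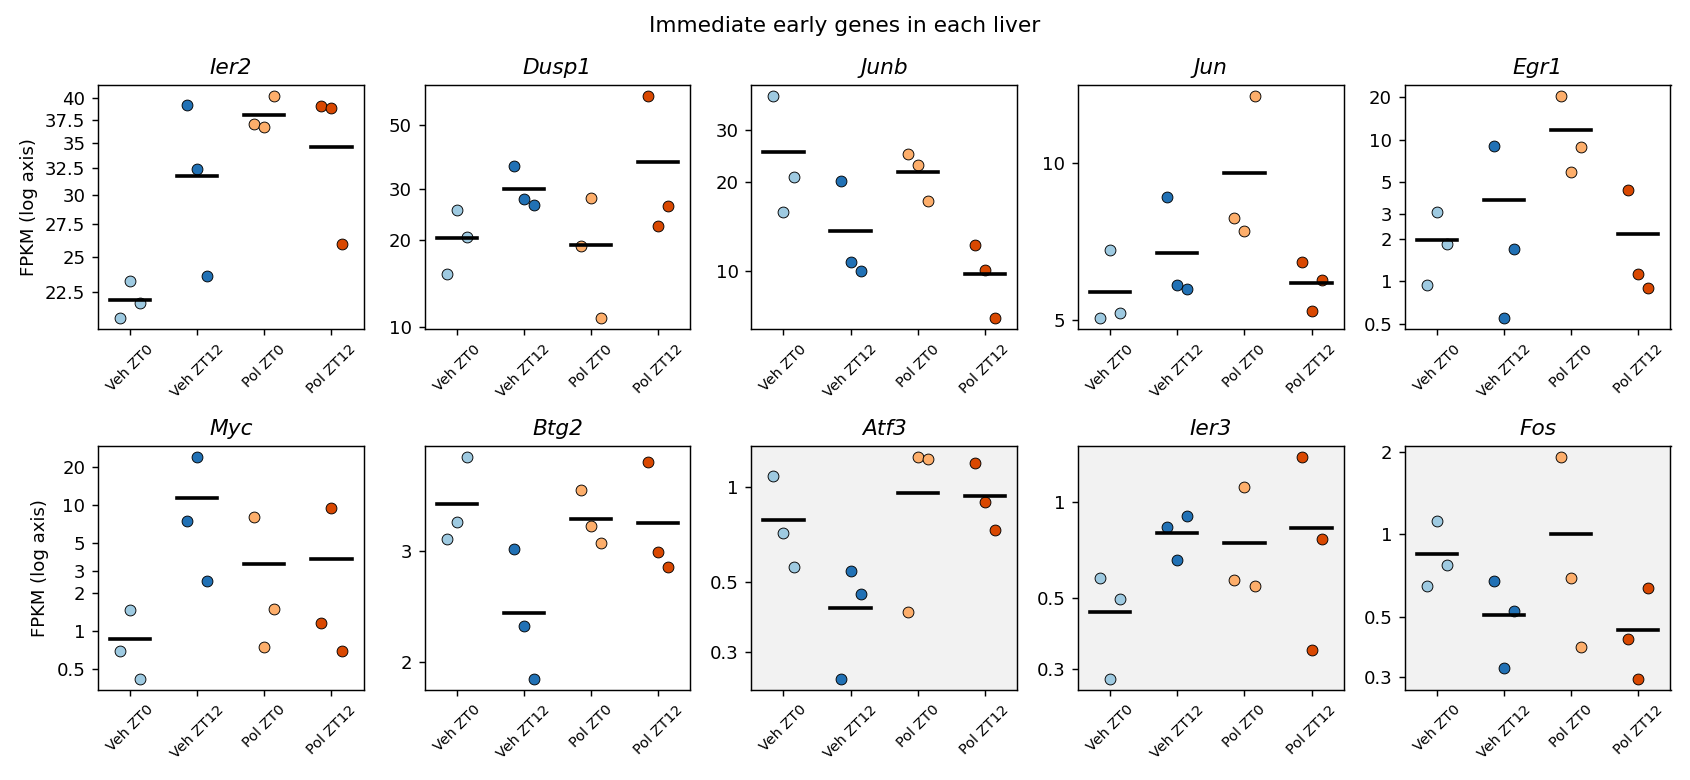
FPKM of each of the 10 immediate early genes in each liver, on a log axis that differs between panels and runs from the highest gene (Ier2) to the lowest (Fos). Each point is 1 mouse, bars are group means, Veh is vehicle and Pol is Policaptil, and grey panels mark the 3 genes below the minimum of 1 FPKM; Egr1 spans 0.546 to 20.4 FPKM and Myc 0.417 to 23.9 FPKM, while Ier2 spans only 20.8 to 40.2 FPKM.

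In the GRCm38 mouse genome the genes lay on several chromosomes. Atf3 (ENSMUSG00000026628.13) was annotated at chr1:191170296-191218039 and Btg2 (ENSMUSG00000020423.6) at chr1:134075170-134079120, both on the minus strand. Ier2 (ENSMUSG00000053560.4) was at chr8:84661331-84662852 and Junb (ENSMUSG00000052837.6) at chr8:84974484-84978718, again both on the minus strand. Dusp1 (ENSMUSG00000024190.7) was at chr17:26505590-26562128 on the minus strand and Ier3 (ENSMUSG00000003541.6) at chr17:35821684-35822923 on the plus strand. Jun (ENSMUSG00000052684.4) was at chr4:95049034-95052222 on the minus strand, Fos (ENSMUSG00000021250.13) at chr12:85473890-85477273 on the plus strand and Myc (ENSMUSG00000022346.15) at chr15:61985391-61990374 on the plus strand. Egr1 has the identifier ENSMUSG00000038418.7. Junb shared 173 exonic bases with Prdx2 on the opposite strand, a gene with a mean of 154.6 FPKM, Jun shared 232 with the antisense transcript Junos, and Dusp1 shared 11 with Ergic1. The sources name both a stranded and an unstranded library kit, so reads in those stretches may have been shared between the genes.

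Promoter sequence was read from RefSeq on GRCm38.p6 for the 7 members with an entry (Fos, Jun, Junb, Ier3, Atf3, Dusp1 and Btg2), as a window of 250 bases before to 50 after the start. The cAMP response element TGACGTCA, bound by CREB and ATF factors including ATF3, was found in Dusp1 and Btg2, against 1.79% of all 32851 promoter windows. Its half-site TGACG, searched on both strands and added after the windows had been read, was found in Fos, Junb, Atf3, Dusp1 and Btg2, against 20.8% of all windows, and every full element also holds it. The E-box CACGTG, which MYC and CLOCK partners bind, was found in Dusp1, against 7.15% of windows. The AP-1 element TGANTCA (7.81% of windows), the CArG box of SRF (CC, 6 of A or T, GG; 1.63%) and the EGR elements GCGTGGGCG and GCGGGGGCG (3.47%) were found in none of the 7. Bases outside the window were not searched, and Egr1, Ier2 and Myc had no entry. So these elements may lie farther out or in those 3 genes. A match is a run of letters and not a bound site. The stretches shown are the 180 bases that end just before the start, 5′ to 3′ on the strand of the gene, for the members with a full cAMP element (Dusp1 and Btg2) and for an AP-1 pair with half-sites only (Fos and Junb); the half-site of Atf3, at -7 to -3 from the start, is not shown. The coordinates are Fos (chr12:85473710-85473889, plus strand), Junb (chr8:84978749-84978928, minus strand), Dusp1 (chr17:26508473-26508652, minus strand) and Btg2 (chr1:134079156-134079335, minus strand). Capitals mark the matches.
Fos: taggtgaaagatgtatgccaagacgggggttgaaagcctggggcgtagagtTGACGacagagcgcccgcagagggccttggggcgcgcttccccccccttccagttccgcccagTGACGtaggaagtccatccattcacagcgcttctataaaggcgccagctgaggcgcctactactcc
Junb: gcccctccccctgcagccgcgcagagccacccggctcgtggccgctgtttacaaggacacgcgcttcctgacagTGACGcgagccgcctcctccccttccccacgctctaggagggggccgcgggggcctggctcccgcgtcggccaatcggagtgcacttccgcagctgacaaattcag
Dusp1: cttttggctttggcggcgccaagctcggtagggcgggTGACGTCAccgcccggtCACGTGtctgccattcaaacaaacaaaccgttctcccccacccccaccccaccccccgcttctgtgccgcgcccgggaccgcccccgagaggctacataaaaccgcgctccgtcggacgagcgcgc
Btg2: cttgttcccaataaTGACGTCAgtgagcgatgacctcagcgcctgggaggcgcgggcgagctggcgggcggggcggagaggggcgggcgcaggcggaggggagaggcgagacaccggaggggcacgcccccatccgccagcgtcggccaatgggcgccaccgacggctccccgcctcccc
The Dusp1 stretch carries a full cAMP element at -143 to -136 from the start and an E-box at -126 to -121, and the Btg2 stretch a full cAMP element at -166 to -159. Fos and Junb carry half-sites only.

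Whether the genes differed between lights off and lights on was asked first in the vehicle livers. Myc, a transcription factor that drives growth and ribosome synthesis, had 0.697, 1.46 and 0.417 FPKM at ZT0 and 7.43, 23.9 and 2.501 FPKM at ZT12. Every ZT12 liver was above every ZT0 liver, and the 3 ZT12 livers differed among themselves by a factor of 9.57. On the log2(FPKM + 1) scale, used for all differences here, the mean difference was 2.32 ± 0.65 (SE; limma adjusted p = 0.0711), which did not pass the threshold of 0.05. Without vehicle ZT12 replicate 3 the difference was 3.00 with an adjusted p of 0.0355, and over all alternatives its adjusted p lay between 0.000254 and 0.194.

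Ier2, a nuclear protein of the immediate early class, had 20.8, 23.3 and 21.8 FPKM at ZT0 and 39.1, 32.4 and 23.6 FPKM at ZT12 with vehicle. The groups did not overlap, though the lowest ZT12 liver was close to the highest ZT0 liver. The difference was 0.48 ± 0.17 (SE; limma adjusted p = 0.126), and without vehicle ZT12 replicate 3 it was 0.68 with an adjusted p of 0.0484, in a range of 0.037 to 0.289 over the alternatives. Dusp1, a phosphatase that switches off MAP kinases, had 15.3, 25.3 and 20.5 FPKM at ZT0 and 35.9, 27.7 and 26.4 FPKM at ZT12, again with no overlap (0.55 ± 0.20, SE; limma adjusted p = 0.122). Btg2, an antiproliferative gene that p53 induces, had 3.13, 3.34 and 4.23 FPKM at ZT0 and 3.02, 2.28 and 1.88 FPKM at ZT12, so that all ZT12 livers lay lower (-0.43 ± 0.15, SE; limma adjusted p = 0.120).

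Of the AP-1 subunits, Junb had 39.2, 15.8 and 20.8 FPKM at ZT0 and 20.2, 10.7 and 9.999 FPKM at ZT12 with vehicle, and the groups overlapped (limma adjusted p = 0.215). Jun had 5.04, 6.80 and 5.16 FPKM at ZT0 and 8.63, 5.84 and 5.73 FPKM at ZT12, also overlapping. Egr1, a zinc-finger transcription factor that reads growth factor and MAP kinase signals, had 0.943, 3.07 and 1.82 FPKM at ZT0 and 9.07, 0.546 and 1.70 FPKM at ZT12. The ZT12 livers held both the lowest and the highest of these 6 Egr1 values. Among the untested members, Ier3, a stress and survival gene, had 0.579, 0.280 and 0.498 FPKM at ZT0 and 0.831, 0.658 and 0.902 FPKM at ZT12. Atf3 had 1.08, 0.714 and 0.557 FPKM at ZT0 and 0.247, 0.540 and 0.459 FPKM at ZT12. Both were without overlap, at an exact permutation p of 0.1, which is the smallest two-sided p that 3 livers against 3 can give. Fos, the partner of the JUN proteins in AP-1, had 0.645, 1.11 and 0.770 FPKM at ZT0 and 0.676, 0.324 and 0.523 FPKM at ZT12, with overlap.

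In vehicle livers 0 of the 7 tested members passed an adjusted p of 0.05 by limma, and 4 passed an unadjusted p of 0.05 (Myc, Ier2 and Dusp1 higher at ZT12, Btg2 lower). Across all symbols tested, 10.4% passed the adjusted threshold, 27.4% the unadjusted one, and 33.2% had groups that did not overlap. Of the 10 members, 4 lay higher and 2 lower at ZT12 without overlap. The median difference of the 7 was 0.30, and that of all symbols 0.0078. The summed level of the 5 fat markers was 2.86 to 7.97 FPKM at ZT0 and 11.5 to 42.8 FPKM at ZT12. Of these markers, 4 were listed at 0 in every ZT0 liver and 2 in every ZT12 liver. Nearly all of the sum came from Cfd alone, with vehicle means of 5.97 FPKM at ZT0 and 26.8 FPKM at ZT12. Cfd was the only fat marker tested, and it was not called (limma adjusted p = 0.0598). The liver with a sum of 42.8 FPKM, vehicle ZT12 replicate 2, was the one with the highest Myc. The other livers of its group had the reverse order. Replicate 1 had 7.43 FPKM of Myc at a sum of 11.5 FPKM, and replicate 3 had 2.501 FPKM at a sum of 26.1 FPKM. The part of the fat markers in the Myc values was not tested.

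With Policaptil, Egr1 and Junb were called in the same comparison, both lower at ZT12. Egr1 had 20.4, 5.90 and 8.89 FPKM at ZT0 and 4.44, 1.12 and 0.887 FPKM at ZT12. All ZT0 livers were above all ZT12 livers, with means of 11.7 ± 7.68 and 2.15 ± 1.99 FPKM (SD, n = 3 each). Egr1 fell by 2.02 ± 0.52 (SE; limma adjusted p = 0.0469). The call was lost when a Policaptil ZT0 liver was left out, whether replicate 1 (difference -1.56, adjusted p = 0.103), 2 (-2.38, 0.0574) or 3 (-2.12, 0.104), and also when replicate 2 (-1.82, 0.133) or 3 (-1.74, 0.131) of Policaptil ZT12 was, and its adjusted p ranged from 9.2e-05 to 0.139 over the alternatives.

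Junb had 24.9, 22.8 and 17.2 FPKM at ZT0 and 12.3, 10.03 and 6.89 FPKM at ZT12 with Policaptil. The groups were well apart, and Junb fell by 1.09 ± 0.21 (SE; limma adjusted p = 0.0198). This call too was lost without Policaptil ZT0 replicate 1 (difference -0.99, adjusted p = 0.0623) or replicate 2 (-1.05, 0.0669) and without Policaptil ZT12 replicate 2 (-1.13, 0.0585), in a range of 3.9e-05 to 0.0769. Jun had 7.84, 7.42 and 13.4 FPKM at ZT0 and 6.47, 5.20 and 5.97 FPKM at ZT12, again without overlap, with a difference of -0.58 ± 0.21 (SE; limma adjusted p = 0.116), which was -0.33 (adjusted p = 0.146) without Policaptil ZT0 replicate 3, the liver with 13.4 FPKM. Prdx2, which shares exonic bases with Junb, had 133 to 140 FPKM in the Policaptil livers at ZT0 and 160 to 171 FPKM at ZT12. In the vehicle livers its groups overlapped, at 143.7 to 166.3 FPKM at ZT0 and 153.0 to 168.5 FPKM at ZT12. Vehicle ZT0 replicate 1 held the highest Junb of all livers (39.2 FPKM) and the highest Prdx2 of its group (166.3 FPKM). Whether reads were shared between the genes was not tested.

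The other members did not separate by time with Policaptil. Myc had 7.92, 0.746 and 1.498 FPKM at ZT0 and 1.17, 9.36 and 0.696 FPKM at ZT12, with 1 high liver in each group. Dusp1 had 19.0, 28.0 and 10.7 FPKM at ZT0 and 62.8, 22.4 and 26.2 FPKM at ZT12, and 62.8 FPKM was the highest Dusp1 value of all livers. Ier2 had 37.1, 36.7 and 40.2 FPKM at ZT0 and 39.0, 38.8 and 25.9 FPKM at ZT12, with 1 low liver at ZT12. Btg2 had 3.75, 3.29 and 3.08 FPKM at ZT0 and 4.15, 2.99 and 2.83 FPKM at ZT12. The low members overlapped too. Fos had 1.91, 0.692 and 0.387 FPKM at ZT0 and 0.414, 0.296 and 0.633 FPKM at ZT12. Ier3 had 0.570, 1.11 and 0.547 FPKM at ZT0 and 1.38, 0.345 and 0.766 FPKM at ZT12. Atf3 had 0.403, 1.25 and 1.23 FPKM at ZT0 and 1.19, 0.894 and 0.734 FPKM at ZT12, so that its ZT0 livers held both its lowest and its highest value.

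In Policaptil livers 2 of the 7 tested members were called and 3 passed the unadjusted threshold, all lower at ZT12. The background was 12.4% of symbols called, 29.2% at the unadjusted threshold and 34.9% without overlap, and 3 of the 10 members had no overlap. The median difference was -0.15 for the members and 0.0131 for all symbols. Markers of other cell types moved in the same comparison. The 8 endothelial markers summed to 37.2 to 45.7 FPKM at ZT0 and 23.2 to 24.5 FPKM at ZT12, with 3 of 6 tested called lower and none listed at 0. The 8 stellate cell markers summed to 52.2 to 71.9 FPKM at ZT0 and 26.1 to 45.1 FPKM at ZT12, with 4 of 7 tested called lower and none listed at 0. In vehicle livers the endothelial sum was 29.0 to 38.6 FPKM at ZT0 and 14.4 to 24.7 FPKM at ZT12. Their part in the Egr1 and Junb results was not tested.

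**Figure D2:**
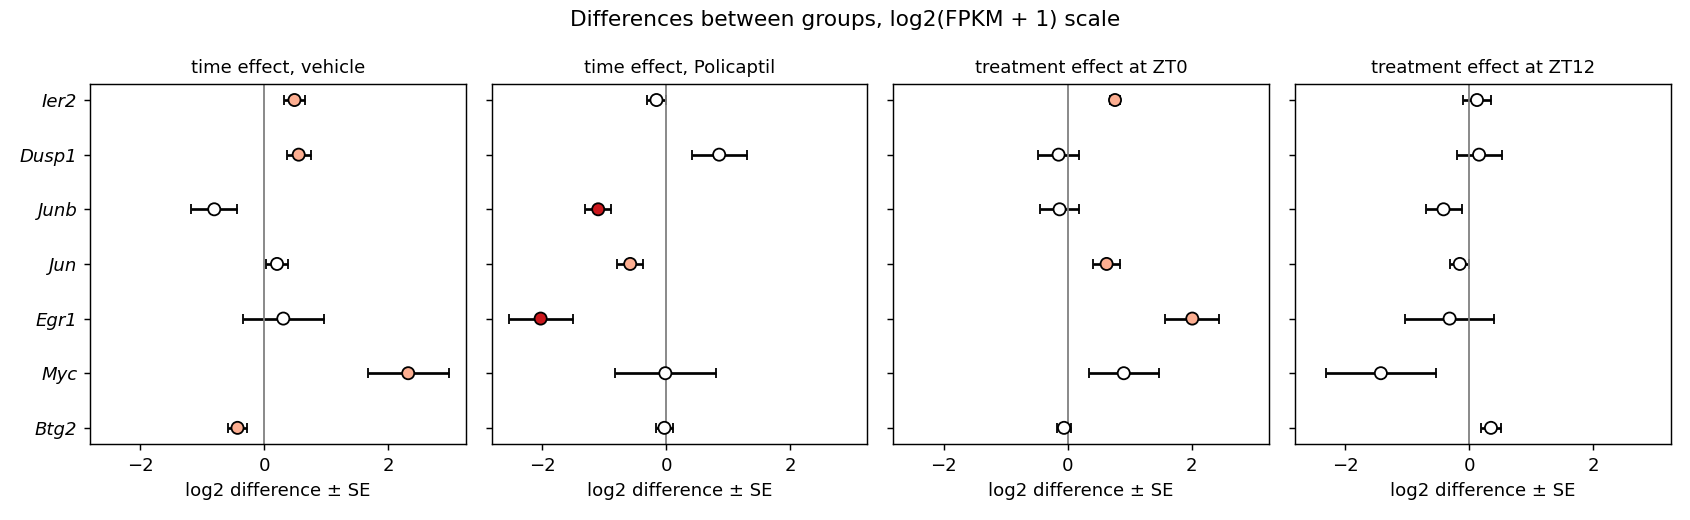
Differences between groups for the 7 tested members on the log2(FPKM + 1) scale, with bars of 1 SE from limma. Dark points passed an adjusted p of 0.05, pale points an unadjusted p of 0.05 and open points neither; only Egr1 (-2.02) and Junb (-1.09) over time with Policaptil are dark, and Myc over time with vehicle (2.32) is the largest pale one.

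Over both treatments together, Junb was lower at ZT12 by limma (-0.95 ± 0.23, SE; adjusted p = 0.0106), with the call kept under every alternative run (adjusted p 0.00132 to 0.0288). An exact permutation within treatments gave p = 0.01 for Junb, where 0.005 is the smallest possible. Dusp1 was 0.71 ± 0.27 (SE) higher at ZT12 with an adjusted p of 0.071, and its adjusted p was 0.0393 with Policaptil ZT0 replicate 2 left out and 0.0444 with Policaptil ZT12 replicate 2 left out, in a range of 0.0393 to 0.151. So 1 of 7 members was called and 2 passed the unadjusted threshold, against 30.0% and 41.2% of all symbols. For the clock itself, 7 of 8 evening genes were called higher at ZT12 under each treatment, such as Usp2 (0.623 and 16.0 FPKM at ZT0 and ZT12 with vehicle). This is the order the time labels give. Of all symbols, 10.4% were called in either direction with vehicle and 12.4% with Policaptil. Of 4 tested morning genes, 3 were called lower at ZT12 under each treatment, and Cry1 was called higher with Policaptil (limma adjusted p = 0.0231).

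At ZT0, Policaptil was compared with vehicle. Egr1 was 20.4, 5.90 and 8.89 FPKM with Policaptil and 0.943, 3.07 and 1.82 FPKM with vehicle, so that all treated livers lay above all vehicle livers. The difference was 2.01 ± 0.43 (SE; limma adjusted p = 0.324). Ier2 was 37.1, 36.7 and 40.2 FPKM with Policaptil and 20.8, 23.3 and 21.8 FPKM with vehicle. The group means were 38.0 ± 1.94 and 22.0 ± 1.23 FPKM (SD, n = 3 each), an SD of 5.12% and 5.59% of the mean, and the groups were far apart. The difference of 0.77 ± 0.087 (SE) had a limma p of 4.5e-05 and an adjusted p of 0.222. Jun, at 7.84, 7.42 and 13.4 FPKM against 5.04, 6.80 and 5.16 FPKM, also had no overlap (0.63 ± 0.22, SE; limma adjusted p = 0.506), and its difference was 0.38 (adjusted p = 0.925) without the Policaptil liver at 13.4 FPKM, replicate 3.

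By adjusted p none of the 7 members was called at ZT0, and 3 passed the unadjusted threshold of 0.05 (Egr1, Ier2 and Jun, all higher with Policaptil). Across all symbols 0% were called, 9.23% passed the unadjusted threshold and 15.1% had no overlap, where 3 of the 10 members had none. A version of the Cyber-T test, the kind of test the study used, called 2 members at ZT0 by adjusted p (Egr1, 0.000488, and Ier2, 0.00485), with ranges over all alternatives of 0.000488 to 0.925 and 0.00485 to 0.644. Of all 9806 symbols that version called 69. The median difference was 0.63 for the members and -0.02 for all symbols. The other members overlapped: Junb was 17.2 to 24.9 FPKM with Policaptil and 15.8 to 39.2 FPKM with vehicle, Dusp1 10.7 to 28.0 and 15.3 to 25.3 FPKM, Btg2 3.08 to 3.75 and 3.13 to 4.23 FPKM, and Myc 0.746 to 7.92 and 0.417 to 1.46 FPKM. Policaptil ZT0 replicate 1 held the highest Egr1, Fos, Junb, Myc and Btg2 values of its group. The summed macrophage markers were 35.8 to 56.6 FPKM with Policaptil and 57.1 to 64.9 FPKM with vehicle, with none of the 9 at 0. Of the 7 tested, 4 were lower and 0 higher with Policaptil at an unadjusted p of 0.05, where 9.23% of all symbols passed. Their median difference was -0.47. The hepatocyte sum was 40040 to 49760 and 35170 to 38910 FPKM, with 1 of 7 higher and 0 lower at that threshold. None of these markers was called, where 0% of all symbols were. Their part in these differences was not tested.

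At ZT12 none of the tested members separated the treatments. Egr1 in vehicle livers was 9.07, 0.546 and 1.70 FPKM, and in Policaptil livers 4.44, 1.12 and 0.887 FPKM, so that the groups overlapped. Myc was 11.3 ± 11.2 FPKM with vehicle and 3.74 ± 4.87 FPKM with Policaptil (SD, n = 3 each), and Ier2 was 31.7 ± 7.78 and 34.6 ± 7.50 FPKM. By limma 0 of 7 members passed either threshold, against 0% of all symbols at the adjusted and 6.74% at the unadjusted threshold. A version of Cyber-T called 0 as well, where it called 23 of 9806 symbols. It had 3 members at an unadjusted p of 0.05, where 660 symbols passed. Among all 10, Atf3, a stress-induced factor of the ATF/CREB family, was the only member without overlap, at 0.247, 0.540 and 0.459 FPKM in vehicle livers and 1.19, 0.894 and 0.734 FPKM in Policaptil livers (exact permutation p = 0.1). The share of all symbols without overlap was 13.1%, and 1 of 10 members is no more than that. The median difference was -0.15 for the members and -0.0144 for all symbols.

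Whether the time difference depended on the treatment was tested directly by the interaction in the fit to all 12 livers. Egr1 (-2.33, limma adjusted p = 0.705), Jun (-0.78, 0.665) and Ier2 (-0.64, 0.701) passed the unadjusted threshold and 0 members the adjusted one, against 6.63% and 0% of all symbols. The sign means that ZT12 minus ZT0 was lower with Policaptil than with vehicle for each of them. So the calls for Egr1 and Junb with Policaptil, and their absence with vehicle, do not show that the treatments differed over time. Over both times, Ier2 was 0.45 ± 0.13 (SE) higher with Policaptil (limma p = 0.0047, adjusted p = 0.329; exact permutation within times p = 0.035), the only 1 of 7 members at the unadjusted threshold, where 10.5% of all symbols were and 0% were called.

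The members were widely spread between livers of the same group. The pooled within-group SD on the log2(FPKM + 1) scale was 1.20 for Myc, 0.95 for Egr1, 0.55 for Dusp1 and 0.48 for Junb, and the median over all tested symbols was 0.14. Myc and Egr1 exceeded 99.3% and 99.1% of the tested symbols. Even the steadiest member, Btg2 at 0.20, was above 76.2% of them. Myc in vehicle ZT12 ranged from 2.501 to 23.9 FPKM, and Egr1 in the same group ranged from 0.546 to 9.07 FPKM, a factor of 16.6. Between groups, Ier2 had the largest share of its variance (66.7%), then Junb (62.4%), and Dusp1 (39.1%) and Myc (42.0%) were the lowest of the tested members. The median share over all tested symbols was 45.9%, so that the members lay on both sides of it.

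**Figure D3:**
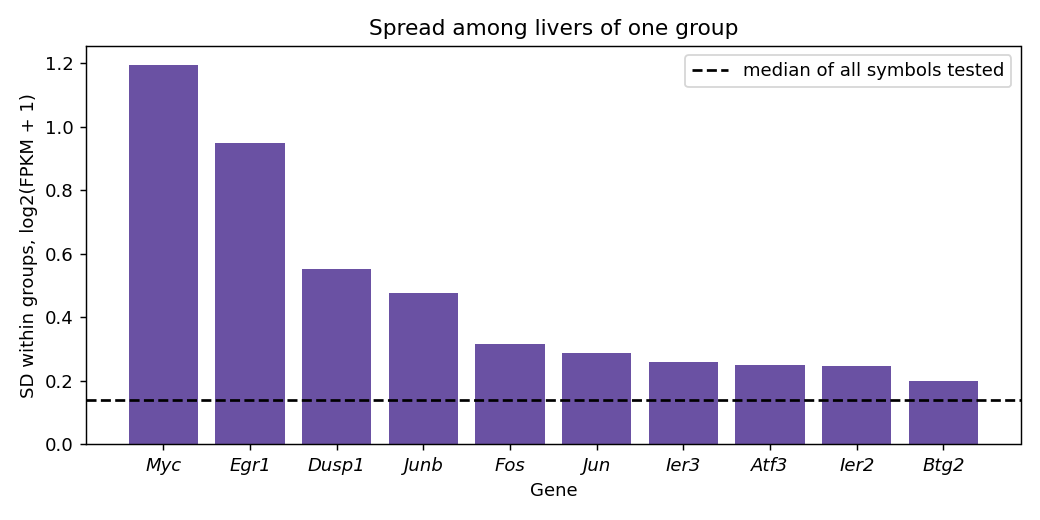
Pooled SD within groups of log2(FPKM + 1) for each of the 10 genes, with the median over all symbols tested as a dashed line. All 10 bars stand above the line at 0.14, from Btg2 at 0.20 to Myc at 1.20.

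The livers that were high were not the same for every gene. Policaptil ZT0 replicate 1 was among the 3 highest livers for 6 of the 10 members and Policaptil ZT12 replicate 1 for 5, while Policaptil ZT12 replicate 3 was among them for 0. Myc was highest in vehicle ZT12 replicate 2, Egr1 in Policaptil ZT0 replicate 1, Dusp1 in Policaptil ZT12 replicate 1, Jun in Policaptil ZT0 replicate 3 and Junb in vehicle ZT0 replicate 1. After the group means had been subtracted, 17 of the 21 pairs of tested members had a positive correlation over the 12 livers, with a mean r of 0.288, against 0.0087 over all pairs of tested symbols. An unadjusted p under 0.05 was reached by 2 pairs for Pearson r and by 2 for Spearman rho, 3 pairs in all. Egr1 with Btg2 passed for r alone (r = 0.73, permutation p = 0.0448; rho = 0.58, permutation p = 0.13; adjusted p over the 21 pairs 0.47 and 0.574), and without the 2 livers farthest from the Egr1 median r was 0.44. Dusp1 with Btg2 had r = 0.63 (permutation p = 0.0432, adjusted 0.47) and rho = 0.72 (permutation p = 0.0185, adjusted 0.389), and r was 0.48 without the 2 livers farthest from the Dusp1 median. Jun with Ier2 passed for rho alone (rho = 0.58, permutation p = 0.0432, adjusted 0.454; r = 0.43, permutation p = 0.151, adjusted 0.582), and r was 0.22 without the 2 livers farthest from the Jun median. No pair passed after adjustment. These pairs share the library they were measured in.

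**Figure D4:**
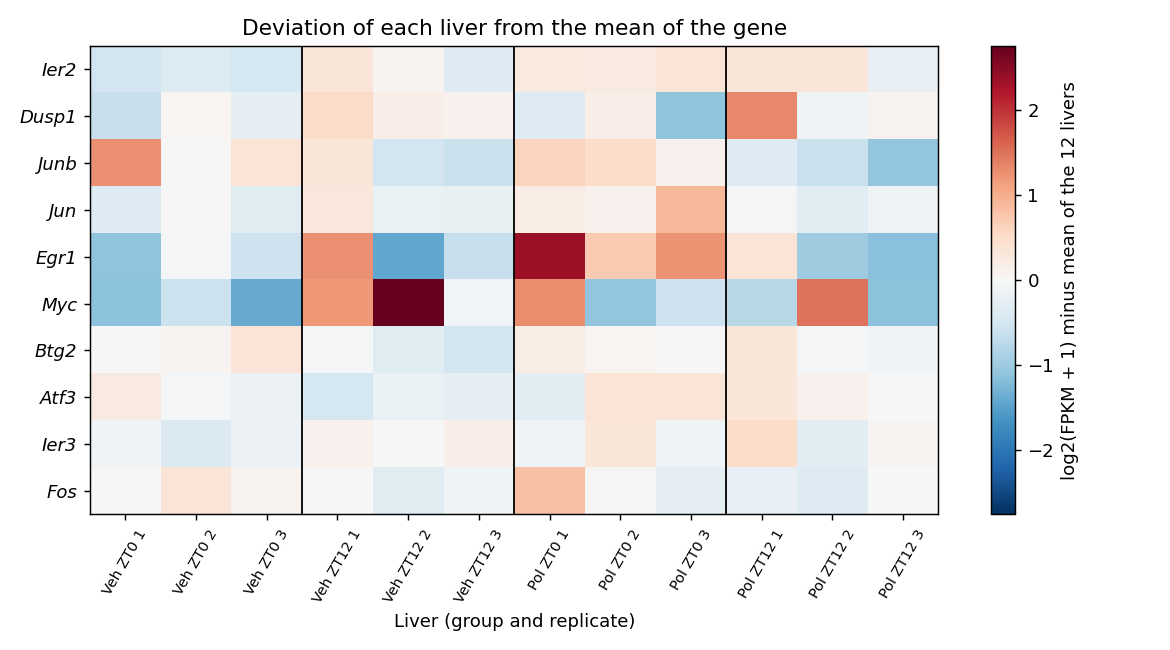
Deviation of each liver (columns, by group and replicate) from the mean over the 12 livers of each gene (rows, highest mean at the top), in log2(FPKM + 1). Red is above and blue below the mean; the deepest cells are Myc in vehicle ZT12 replicate 2 (23.9 FPKM) and Egr1 in Policaptil ZT0 replicate 1 (20.4 FPKM), and no liver is red in every row.

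The genes outside the list whose pattern over the 12 livers was nearest to the mean z-score of the 7 tested members were Irf2bpl (r = 0.877), Cebpa (0.862), Arhgap26 (0.838), Mum1 (0.822), Dnttip1 (0.817), Trio (0.807), Ifngr1 (0.805), Frg1 (0.788), Xaf1 (0.786) and Zfp143 (0.783). Cebpa, a liver-enriched transcription factor, was 163 to 210 FPKM, so that it followed the members at a high and nearly even level. These correlations describe 12 livers and were picked as the highest of all symbols tested.

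Of 35 other immediate early genes listed, 25 were tested and 10 stayed below the minimum, among them Egr2, Egr3, Fosb, Fosl1, Nr4a3 and Arc, none of which exceeded 0.105 FPKM in any liver. With vehicle, 2 were called higher at ZT12, Plk3 (16.7 and 70.3 FPKM at ZT0 and ZT12; limma adjusted p = 0.0178), a stress-activated kinase, and Trib1 (11.04 and 19.0 FPKM; 0.00803), a pseudokinase, and 2 were called lower, Plk2 (3.46 and 1.16 FPKM; 0.0354), another polo-like kinase, and Dusp6, a MAP kinase phosphatase. With Policaptil, Sik1, a kinase induced by cAMP (2.78 and 7.27 FPKM; 0.0183), was called higher and Klf6, a zinc-finger factor (1.92 and 0.612 FPKM; 0.0108), and Zfp36l1, an mRNA decay factor, were called lower. Dusp6 and Zfp36l1 lay outside the rule for named genes and were added after their values were seen. The 4 calls with vehicle and 3 with Policaptil, of 25 tested, stand beside 10.4% and 12.4% of all symbols. The median difference of the 25 was -0.14 with vehicle and -0.0114 with Policaptil. None was called for treatment at ZT0 or ZT12; at an unadjusted p of 0.05, 3 were higher and 1 lower with Policaptil at ZT0, where 9.23% of all symbols passed, and 3 were higher at ZT12, where 6.74% did.

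Upstream of the class, the 25 genes of the SRF, TCF and MAP kinase chain, which carry growth factor signals to these promoters, were counted next. Of the 22 tested, 0 were called higher and 1 lower at ZT12 with vehicle (10.4% of all symbols were called). This was Crem, a cAMP-responsive repressor and activator (12.5 and 7.12 FPKM; limma adjusted p = 0.0131). At ZT0 and ZT12, none was called for treatment, where 0% of all symbols were. At ZT0, 3 of the 22 had an unadjusted p under 0.05, all lower with Policaptil, where 9.23% of all symbols passed.

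Genes known to act with single members, or to share a regulator with them, were counted in the same way. Of 10 partners of Atf3 in the integrated stress response, 3 were called lower at ZT12 with vehicle (Atf5, Gdf15 and Ddit3) and 2 with Policaptil (Atf5 and Gdf15), against the 10.4% and 12.4% of all symbols called in either direction. Atf5 was 423 and 127 FPKM at ZT0 and ZT12 with vehicle (limma adjusted p = 0.00695) and, with Policaptil, 448 and 118 FPKM (0.00565), and Gdf15, a stress-induced hormone, was 17.3 and 3.95 FPKM (0.0328) and 15.6 and 3.23 FPKM (0.00272). Of 10 glucocorticoid targets chosen because Dusp1 is one, 2 were called higher at ZT12 with vehicle, where 10.4% of all symbols were called in either direction, and 8 with Policaptil, where 12.4% were. Their median differences were 1.03 and 1.92. The interaction called 0 of the 10, where 0% of all symbols were called, and 3 had an unadjusted p under 0.05, where 6.63% did. So the counts called over time do not show that the treatments differed. With vehicle, Mt1 and Mt2, the metallothioneins, missed the call at differences of 2.92 and 3.58 (limma adjusted p = 0.131 and 0.134). Fkbp5 at ZT0 and ZT12 was 5.06 and 19.8 FPKM in vehicle livers (limma adjusted p = 0.0215) and 5.44 and 24.0 FPKM in Policaptil livers (0.0172), and Per1, also a clock gene, was 3.59 and 11.3 FPKM (0.0195) and 2.38 and 16.3 FPKM (0.00104). Of 8 tested p53 targets, 0 were called with vehicle, and with Policaptil Cdkn1a was called higher at ZT12 (1.28 and 2.96 FPKM; 0.0172) and Btg1, the paralog of Btg2, lower (9.09 and 5.53 FPKM; 0.0137), beside Sesn1 (5.22 and 3.50 FPKM; 0.0373). None of the 7 tested partners of Myc was called under either treatment alone. The same 10.4% and 12.4% of all symbols are the background of these counts.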

How the data were processed

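RNA from 12 mouse livers, 3 mice in each of 4 groups, was sequenced. By the methods of the study, mRNA was first enriched from total RNA with oligo dT beads. Per the labels, the tools were TopHat and Cuffnorm on GRCm38 (mm10), with no version given, and the deposited table holds FPKM per gene. The methods of the study describe another route, ELAND with uniquely aligned reads and RPKM values, and a stranded kit where the labels name an unstranded one, so the route and the strand setting are uncertain. Library totals are unknown, and only relative depth could be read.

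Differences were taken on log2(FPKM + 1) with limma 3.58.1 (R 4.3.3; two-sided, trend), for symbols with a mean of at least 1 FPKM (9806 of 23849), and p-values were adjusted over all of them by the Benjamini-Hochberg method; called means an adjusted p under 0.05. Comparisons of single groups used the 6 livers compared, and joint contrasts all 12. Single genes were also tested by an exact two-sided permutation of livers, and pairs of genes by permutation within groups. On simulated data 97.5% of 200 genes with a log2 change of 2, drawn from all symbols tested, were called at ZT0. Of 9606 unchanged genes, 5.39% had a limma p under 0.05. Among the tested members only Egr1 (2.01) differed by that much at ZT0, and all members were more widely spread than the median symbol. So the simulation does not say how often a change in a member would be called. Same-numbered libraries of different groups did not deviate together (4 of 18 pairs with r over 0.1), so no pairing was used.

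The members and lists were chosen with earlier results of these data known. All 10 members are described; of other lists, at most 6 genes called in at least 1 comparison were eligible to be named, by smallest p, and the 10 genes most like the members by Pearson r. Of lines with a repeated symbol there were 289, none of a member. Alternatives changed the pseudocount, the minimum, the trend, the scaling, the samples fitted, the block, the test (a version of Cyber-T with a window of 101 genes and a prior weight of 10) and each replicate in turn. Python 3.11.15, pandas 2.3.3, numpy 2.4.6 and scipy 1.17.1 were used. A single result of the kinase list is not reported here.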

Additional observations from a re-analysis of the deposited data

How the results depend on the processing

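Of 259 alternative values of the 16 single-gene differences, 0 reversed, 236 kept their side of the threshold, 13 lost it and 10 gained it. The count of members called over time with Policaptil, 2, became 1 with a pseudocount of 0.1, a minimum of 5 FPKM, quantile normalization or a fit over all 12 samples, 0 with no minimum, where the calls over all symbols went from 1212 to 639, and 4 with the version of Cyber-T. The version of Cyber-T also called 4 members over time with vehicle, where limma called 0, and 2 at ZT0, where it called 69 symbols and limma 0. Of all 9806 symbols it called 1385 over time with vehicle and 1584 with Policaptil, against 1020 and 1212 by limma. Egr1, with a mean of 4.90 FPKM, was not tested at the minimum of 5 FPKM, so its call with Policaptil dropped out there. For the other changes the cause was not tested. At an unadjusted p of 0.05 the count over time with vehicle went from 4 to 2 with a minimum of 5 FPKM, where 1901 of 6151 symbols passed. Egr1, Myc and Btg2 do not reach that minimum. The count at ZT12 went from 0 to 1 with no minimum (1139 of 17066 symbols) or a fit over all 12 samples (597 of 9806). With the version of Cyber-T it went to 3 (660 of 9806 symbols). The replicate block gave 3 members at an unadjusted p of 0.05 at ZT12 in place of 0, where 645 of 9806 symbols passed. It changed no count of members called by adjusted p. The symbols called over time fell from 1020 to 279 with vehicle and from 1212 to 709 with Policaptil. Only 3 of 12 libraries correlated best with their own number.

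Leaving out each replicate in turn, the members called ranged from 0 to 2 over time with vehicle, from 0 to 2 with Policaptil and from 1 to 2 over both treatments. In the same order, 226 to 869, 535 to 1014 and 2433 to 2912 of the 9806 symbols were called. At an unadjusted p of 0.05 the members ranged from 1 to 5 over time with vehicle, from 0 to 1 at ZT12, from 1 to 4 for the interaction, from 1 to 3 for treatment over both times and from 1 to 4 for time over both treatments. In that order, 1990 to 2796, 485 to 889, 543 to 896, 717 to 1264 and 3678 to 4020 of the 9806 symbols passed. Fos, Ier3 and Atf3 were below the minimum for a test, and for them 3 livers a group cannot reach an exact p of 0.05.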
